A study of Mus musculus with 8 samples.

Results

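Nr4a2, Pitx3, Foxa1, Foxa2, Lmx1a, Lmx1b, En1 and En2 are transcription factor genes that mark midbrain dopamine neurons. These 8 genes, of 23481 in the table, were chosen by name, and all 8 were present. They were followed in single nuclei sorted from adult mouse midbrain, which the labels give as mDA (midbrain dopamine) cells. Nuclei were split by a dopamine load, the summed UMIs (counted molecules) of Th, Slc6a3, Slc18a2 and Ddc per 10000 UMIs of the nucleus. A load of at least 5 made a dopamine nucleus, and a lower load an other nucleus. None of the 8 genes was used in this split.

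The study compared mice with and without working Polycomb repressive complex 2 (PRC2), the complex that places the repressive methyl mark on lysine 27 of histone H3. The labels give the strain as DatCreEed for both groups, and the genotypes as wt and PRC2 mutant. The strain name joins a Cre recombinase driven by the dopamine transporter gene (Dat, Slc6a3) with Eed, a core PRC2 subunit, so recombination is limited to cells in which that driver is or was active. The labels do not say which of these alleles the wt mice carry. Each group was 1 pool of 2 female mice and 1 male mouse aged 8 months, made into 1 library by the v3 version of the 10x 3' method and sequenced on 4 lanes, which are the 8 samples of the series. Neither lanes nor mice can be told apart in the table. With 1 library per genotype there was no replicate and no test, and genotype and library cannot be told apart. Intervals in brackets are exact 95% intervals for counting error only. They leave out differences between mice and between nuclei.

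Midbrain dopamine neurons arise in the floor of the embryonic midbrain. Foxa1 and Foxa2 (forkhead factors) and Lmx1a and Lmx1b (LIM homeodomain factors) act early in this lineage. Nr4a2, an orphan nuclear receptor, and Pitx3, a paired-like homeodomain factor, then turn on genes for making and handling dopamine, and En1 and En2 (engrailed homeodomain factors) support survival of the neurons. Several of these factors stay on in the adult, where Th makes L-DOPA, Ddc turns it into dopamine, Slc18a2 loads dopamine into vesicles and Slc6a3 takes it back up.

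In build mm10 (GRCm38) with the GENCODE M21 annotation, Nr4a2 is at chr2:57106830-57124003, Foxa2 at chr2:148042877-148046969 and Lmx1b at chr2:33560965-33640511, all on the minus strand. Pitx3 is at chr19:46135685-46148326 and Foxa1 at chr12:57540628-57546916, also on the minus strand. Lmx1a is at chr1:167689237-167848741, En1 at chr1:120602418-120607992 and En2 at chr5:28165694-28172166, all on the plus strand. The genes span from 4.09 kb (Foxa2) to 159.5 kb (Lmx1a). Levels are not compared between genes, because 3' tags from nuclei can come from introns and depend on the gene. Pitx3 overlaps Elovl3 on the other strand by 10 bases, and its tags came to 0.152 CPM (UMIs per 1000000 UMIs of the class) in wt and to 0.305 CPM in mutant nuclei.

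PRC2 and its mark are found mostly at promoters rich in CpG dinucleotides, so the upstream sequence of 3 members is shown. En1 and Pitx3 were the members with the largest difference between the libraries, and Nr4a2 had the most CpG of the members. The sequences are from RefSeq (GRCm38.p6), run 5' to 3' on the strand of the gene, end where the first annotated transcript begins, and have each CpG in capitals. En1 is chr1:120602237-120602417 (plus strand, 15 CpG), Pitx3 is chr19:46148327-46148575 (minus strand, 16 CpG) and Nr4a2 is chr2:57124004-57124253 (minus strand, 44 CpG).

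En1: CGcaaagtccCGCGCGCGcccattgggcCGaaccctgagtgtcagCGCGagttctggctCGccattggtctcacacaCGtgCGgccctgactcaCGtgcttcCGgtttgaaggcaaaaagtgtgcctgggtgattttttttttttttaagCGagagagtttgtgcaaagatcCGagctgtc

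Pitx3: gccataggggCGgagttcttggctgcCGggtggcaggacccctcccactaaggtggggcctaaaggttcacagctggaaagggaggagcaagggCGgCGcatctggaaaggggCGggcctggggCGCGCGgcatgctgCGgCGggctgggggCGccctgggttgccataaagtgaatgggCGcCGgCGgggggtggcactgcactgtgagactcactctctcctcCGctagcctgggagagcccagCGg

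Nr4a2: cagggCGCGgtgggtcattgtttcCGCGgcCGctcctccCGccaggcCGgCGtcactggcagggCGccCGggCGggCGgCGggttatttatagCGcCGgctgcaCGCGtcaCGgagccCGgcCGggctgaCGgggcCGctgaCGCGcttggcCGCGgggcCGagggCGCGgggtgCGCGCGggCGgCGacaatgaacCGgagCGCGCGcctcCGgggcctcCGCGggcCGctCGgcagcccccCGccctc

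RefSeq promoters, 250 bases before to 50 after a start, were matched for 7 of the 8 members, all but En2. The median promoter of 32851 in the mouse table held 7 CpG (quartiles 3 and 20). Nr4a2 had 52 CpG, more than 99.4% of those promoters, Foxa1 26, Lmx1b 24, En1 23, Pitx3 20 and Lmx1a 12. The 3 promoters of Foxa2 had 12, 23 and 13. All were above the median, and the promoters of Th (15), Slc6a3 (20) and Slc18a2 (12) were too, whereas both promoters of Ddc were below it (2 and 5). Motifs of these factor families were searched on both strands. The NBRE, the site type of Nr4a receptors (AAAGGTCA), occurs in 1.51% of promoters, and among the members and the 4 split genes only in 1 promoter of Ddc, starting 73 bases before the start. The forkhead letters TGTTTAC occur in 3.65% of promoters, and in this set only in that of Foxa1. Neither TAATCC, the bicoid type bound by Pitx factors (7.06% of promoters), nor TAATTA, the core of LIM and engrailed homeodomains (5.29%), occurred in any of them. A match or its absence describes only these letters in these windows.

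The dopamine class held 1320 of 1772 wt nuclei (74.5%, 72.4 to 76.5) and 2875 of 3968 mutant nuclei (72.5%, 71.0 to 73.8). Their median depths were 24257.5 and 19023 UMIs, and those of other nuclei 12471.5 and 14650. The libraries shared 4 barcodes. The label was checked with 8 markers outside the split (Slc10a4, Chrna6, Drd2, Ret, Aldh1a1, Gch1, Slc17a6 and Cplx1), which summed to 993 CPM in wt dopamine against 250 CPM in wt other nuclei, and to 740 against 294 CPM in the mutant library. Slc17a6 is the gene of a glutamate transporter and stands in the glutamate neuron list too, and without it the other 7 summed to 968 against 160.4 CPM and to 708 against 174 CPM. Glial and vascular markers, 21 of 21 with at least 1 UMI in each class, summed to 220.8, 726, 191 and 375 CPM in wt dopamine, wt other, mutant dopamine and mutant other nuclei. The 3 GABA neuron markers summed to 34.0 CPM in wt and 179 CPM in mutant dopamine nuclei. The targeted gene gives no check of the labels, because the deleted part is not known and 3' tags may lie outside it: Eed had 21.4 CPM in wt and 41.3 CPM in mutant dopamine nuclei. Hoxc4, a posterior homeobox gene that PRC2 holds silent in the midbrain, had 1 UMI in all wt dopamine nuclei and 8107 in mutant ones.

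En1 and Pitx3 were the members that were lower by more than 1.5-fold in mutant than in wt dopamine nuclei. En1 was at 75.1 CPM (72.4 to 77.8) in wt and 29.3 CPM (28.0 to 30.6) in mutant dopamine nuclei, 2.57-fold lower (2.42 to 2.72). Pitx3 was at 18.1 CPM (16.7 to 19.4) and 6.33 CPM (5.75 to 6.95), 2.85-fold lower (2.53 to 3.22). The other 6 members were also below their wt level but within 1.5-fold. A gene is called past 1.5-fold on log2 ratios with 5 CPM added to each level, and folds of single genes are given without it. By this rule 2 of 8 members were lower and 0 higher, while 1.46% of all 16324 genes measured were lower and 1.99% higher. The median log2 ratio was -0.30 over the members and 0.02 over all genes.

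Among the early factors, Foxa1 went from 6.20 CPM in wt to 4.32 CPM in mutant dopamine nuclei (1.43-fold, 1.21 to 1.70) and Foxa2 from 9.37 to 7.06 CPM (1.33-fold, 1.16 to 1.52). Lmx1b was at 143 and 109 CPM (1.32-fold, 1.27 to 1.36). Lmx1a was the closest between the libraries, at 115 and 101 CPM (1.14-fold, 1.10 to 1.19). Nr4a2 was at 115 and 92.2 CPM (1.25-fold, 1.20 to 1.30). En2, the relative of En1, was at 27.9 and 21.7 CPM (1.28-fold, 1.18 to 1.39), so the engrailed genes differed in size although not in direction.

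The split genes themselves were lower in the mutant library, which bears on every comparison of classes defined by them. Th was 2.38-fold lower (178 to 74.8 CPM), Slc6a3 2.56-fold (490 to 191 CPM) and Slc18a2 2.52-fold (779 to 309 CPM), whereas Ddc was within the limit (1004 to 795 CPM). Ddc overlaps an annotated antisense gene, 1700042O10Rik, by 17199 bases, and strand was not known to be used in counting. Of 8 dopamine genes outside the split, a list with Dlk1 and Klhl1 in place of Slc17a6 and Cplx1, 4 were lower and 0 higher. Over all 16324 genes measured, 1.46% were lower and 1.99% higher. The median log2 ratio was -0.60 over the list and 0.02 over all genes. The 4 lower ones were Aldh1a1, which oxidises dopamine's aldehyde (1.95-fold), Gch1, which makes the cofactor of Th (1.95-fold), the transporter gene Slc10a4 (1.85-fold) and Klhl1 (1.92-fold).

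In the other nuclei, no member was past 1.5-fold between the libraries. Pitx3 had too few UMIs there to be measured (a minimum of 50 over both libraries), and 0 of the remaining 7 were called, against 1.94% of 13491 genes lower and 1.0% higher. En1 was at 7.82 CPM in wt and 7.61 CPM in mutant other nuclei (1.03-fold lower, 0.742 to 1.41), an interval that excludes the 2.57-fold of the dopamine nuclei. Glia-marked nuclei, described below, had 7.19 CPM of En1 in wt and 9.96 CPM in mutant. The comparison in other nuclei is thus near background and cannot show whether En1 was unchanged there. Nr4a2 was 1.23-fold higher in mutant other nuclei (1.08 to 1.42), the opposite direction to the dopamine nuclei.

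**Figure D1:**
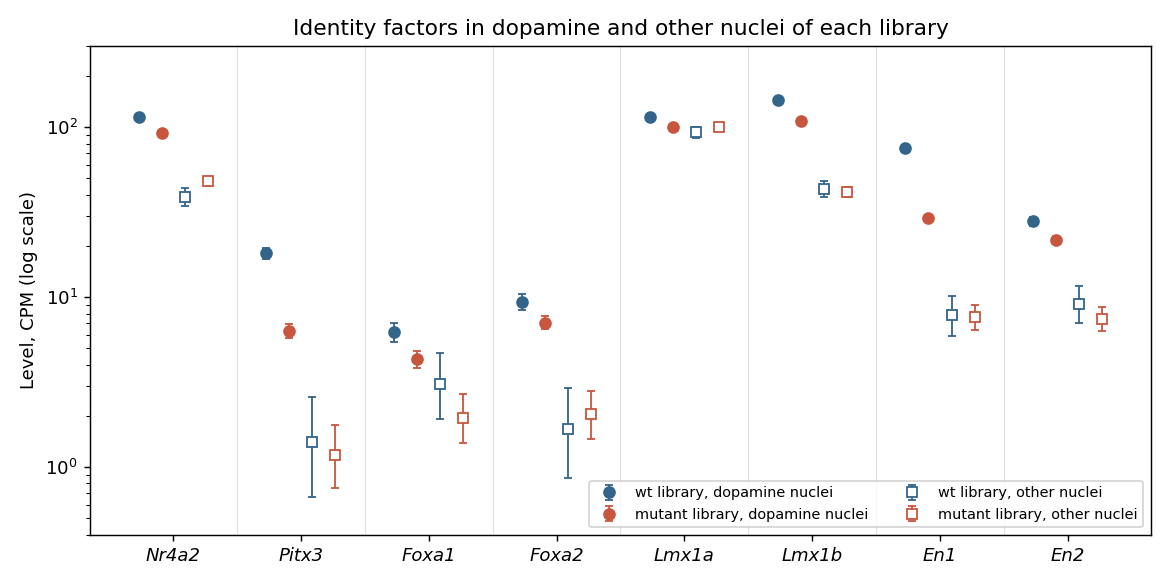
Level of each of the 8 genes in CPM (log scale) in dopamine (filled circles) and other nuclei (open squares) of the wt (blue) and mutant (red) library, with bars for the exact 95% Poisson interval; 1 library per genotype. En1 and Pitx3 show the widest gap between the filled circles (75.1 to 29.3 and 18.1 to 6.33 CPM), and the 4 points of Lmx1a lie between 93.3 and 115 CPM.

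Of a list of 25 other regulators of midbrain dopamine neurons or their progenitors, 24 were measured. In mutant dopamine nuclei 7 of them were higher, 0 lower and 17 within the limit, against 1.99% of all genes higher and 1.46% lower. The median log2 ratio was 0.17 over the list and 0.02 over all genes. Nr4a1 and Nr4a3, the relatives of Nr4a2 that neuronal activity induces, were 2.60-fold (10.2 to 26.6 CPM) and 6.04-fold higher (4.37 to 26.4 CPM). Wnt5a, a secreted signal of the developing midbrain, was 3.36-fold higher (12.8 to 42.9 CPM), and Nkx2-2, a ventral patterning factor, 11.8-fold (1.12 to 13.2 CPM). Pax5, a midbrain and hindbrain boundary factor, was 2.31-fold higher (5.46 to 12.6 CPM). The progenitor factors Neurog2 (0.228 to 3.29 CPM) and Msx1 (0.0254 to 2.73 CPM, from 1 UMI in wt) were the other 2. Sox6, a factor of nigral dopamine neurons, was at 432 and 442 CPM. In other nuclei 1 of 19 measured was higher, Nr4a3, and 0 were lower, against 1.0% of all genes higher and 1.94% lower.

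Within each library, 6 of the 8 members were higher in dopamine than in other nuclei by the same rule, and 0 were lower. The background was 3.4% of 14383 genes higher and 8.2% lower in the wt library, and 2.93% of 15974 genes higher and 4.93% lower in the mutant. En1 was 9.60-fold higher in wt dopamine nuclei (7.37 to 12.7) and 3.85-fold in mutant ones (3.26 to 4.58). Pitx3 was 12.9-fold higher (6.98 to 27.1) and 5.35-fold higher (3.52 to 8.54), from 10 and 23 UMIs in other nuclei. The 6 were completed by Foxa2 (5.59-fold in wt, 3.43-fold in mutant), Lmx1b (3.31-fold and 2.63-fold), En2 (3.07-fold and 2.92-fold) and Nr4a2 (2.97-fold and 1.92-fold). The step from other to dopamine nuclei was smaller in the mutant library for each of these 6, by little for En2, and the split genes, at lower levels there, place nuclei differently in the 2 libraries.

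Foxa1 and Lmx1a were the exceptions. Foxa1 was 2.02-fold (1.30 to 3.28) and 2.21-fold (1.57 to 3.19) higher in dopamine nuclei, but at 2 to 6 CPM it does not pass with 5 CPM added, while it does with 1 CPM added. Lmx1a was nearly level, at 115 CPM in dopamine and 93.3 CPM in other wt nuclei (1.23-fold, 1.13 to 1.34), and at 101 and 99.8 CPM in the mutant library (1.01-fold, 0.958 to 1.06). Both depend on where the dopamine class begins: with a load of at least 2 in place of 5, the wt log2 ratio of Lmx1a was 0.95 and that of Foxa1 0.85, so that all 8 members passed in wt nuclei, while 7 passed in mutant ones.

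The other nuclei were then divided by marker UMIs, which left 88 wt and 178 mutant nuclei without such a marker. Lmx1a was at 124 CPM (109.6 to 141) in 97 glutamate-marked wt nuclei, at 85.3 CPM (73.1 to 98.8) in 107 GABA-marked ones and at 60.8 CPM (49.1 to 74.5) in 160 glia-marked ones. The mutant library gave 111, 102 and 50.8 CPM in the same order. Lmx1b followed this order in wt nuclei only, with 58.8, 32.9 and 28.1 CPM, against 36.1, 46.0 and 24.2 CPM in mutant ones. Nr4a2 was highest in the glutamate-marked nuclei of both libraries (54.4 and 71.6 CPM). En1 ran from 6.37 CPM in glutamate-marked to 11.1 CPM in GABA-marked wt nuclei, with overlapping intervals. In the mutant library these were 3.74 CPM (2.44 to 5.48) and 9.90 CPM (7.84 to 12.3), which do not overlap.

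Glia-marked other nuclei, which should lack these neuronal factors, give a level that free RNA can produce in nuclei of low dopamine load. They do not bound what mixed droplets can produce, because droplets with enough dopamine gene UMIs fall in the dopamine class. The same glial mark was carried by 154 wt and 232 mutant dopamine nuclei, which are not counted as glia-marked here. After thinning every nucleus to 2000 UMIs, Lmx1a had a UMI in 21.8% of wt dopamine nuclei and 6.15% of glia-marked ones, Lmx1b in 25.8% and 3.08%, Nr4a2 in 21.2% and 1.54%, En1 in 13.7% and 0.769%, and En2 in 7.0% and 1.54%. The median depths before thinning were 24257.5 and 4203 UMIs. Pitx3 was seen in 3.42% of dopamine nuclei and in 0 of 130 glia-marked nuclei, which allows up to 2.31%. Foxa1 (1.01%) and Foxa2 (2.10%) were seen in too few dopamine nuclei to stand above that limit at this depth. In the mutant library 0 of 172 glia-marked nuclei allow up to 1.74%, above the shares of Pitx3 (1.47%) and Foxa1 (0.983%) and just below that of Foxa2 (1.83%).

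Across the 4 classes, the order of levels was wt dopamine, mutant dopamine and then other nuclei for all 8 members. The other nuclei of the libraries had overlapping intervals for all members but Nr4a2, and for Foxa1 mutant dopamine and wt other nuclei overlapped too. For Nr4a2 the mutant other nuclei (47.9 CPM, 44.9 to 51.1) lay above the wt ones (38.8 CPM, 34.4 to 43.7). For Lmx1a the intervals of mutant dopamine, mutant other and wt other nuclei overlapped, and only wt dopamine nuclei stood above them.

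The distribution over nuclei was described after thinning each nucleus to 10000 UMIs, which kept 1157 wt and 2354 mutant dopamine nuclei and left out 163 and 521 shallower ones. En1 had a UMI in 51.3% of wt dopamine nuclei (48.3 to 54.2) and in 24.7% of mutant ones (23.0 to 26.5). Pitx3 had one in 16.4% (14.3 to 18.7) and 5.48% (4.60 to 6.48). Unthinned, these shares were 74.2% and 40.4% for En1 and 34.2% and 12.4% for Pitx3. En1 was thus not lost from all mutant nuclei: 4.25% of them held 2 UMIs and 1.44% 3 or more, against 13.2% and 5.62% in wt.

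For the other members the shares with a UMI in wt and mutant dopamine nuclei were 72.5% and 62.0% for Lmx1b, 61.5% and 54.0% for Nr4a2, 54.5% and 50% for Lmx1a, 24.8% and 19.9% for En2, 9.25% and 7.01% for Foxa2, and 6.14% and 3.91% for Foxa1. Each was lower in the mutant library, in the direction of the CPM. Unthinned, Lmx1b was seen in 86.3% and 79.3%, Nr4a2 in 81.1% and 70.4%, Lmx1a in 67.4% and 63.1%, En2 in 48.5% and 36.0%, Foxa2 in 21.7% and 14.2%, and Foxa1 in 15.3% and 9.11%. A wt dopamine nucleus had a median of 3 of the 8 genes with a UMI and a mutant one 2. At least 4 of the 8 were seen in 32.2% of wt (29.6 to 35.0) and 14.5% of mutant dopamine nuclei (13.1 to 16.0), and none in 1.90% and 4.80%. Among other nuclei, 40.5% in each library had none.

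Counting alone gives a variance over nuclei equal to the mean. Foxa1 was near this in both libraries, and the other members lay above it by differing amounts. The variance divided by the mean was 1.18 in wt and 1.27 in mutant nuclei for En1, 1.17 and 1.20 for Pitx3, 1.29 and 1.28 for Lmx1b, and between 0.993 and 1.14 for Foxa1, Foxa2 and En2. Lmx1a had the highest ratio in both, at 2.08 and 2.17: 45.5% of wt dopamine nuclei had no UMI while 18.0% had 3 or more. The ratio also grows with the mean, so it does not rank genes of unlike level by unevenness. Nr4a2 was more uneven in the mutant library (1.98) than in wt (1.40), with a highest value of 16 UMIs against 9, although its mean was lower. In mutant other nuclei the ratio for Nr4a2 was 4.41, and the highest value was 23.

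**Figure D2:**
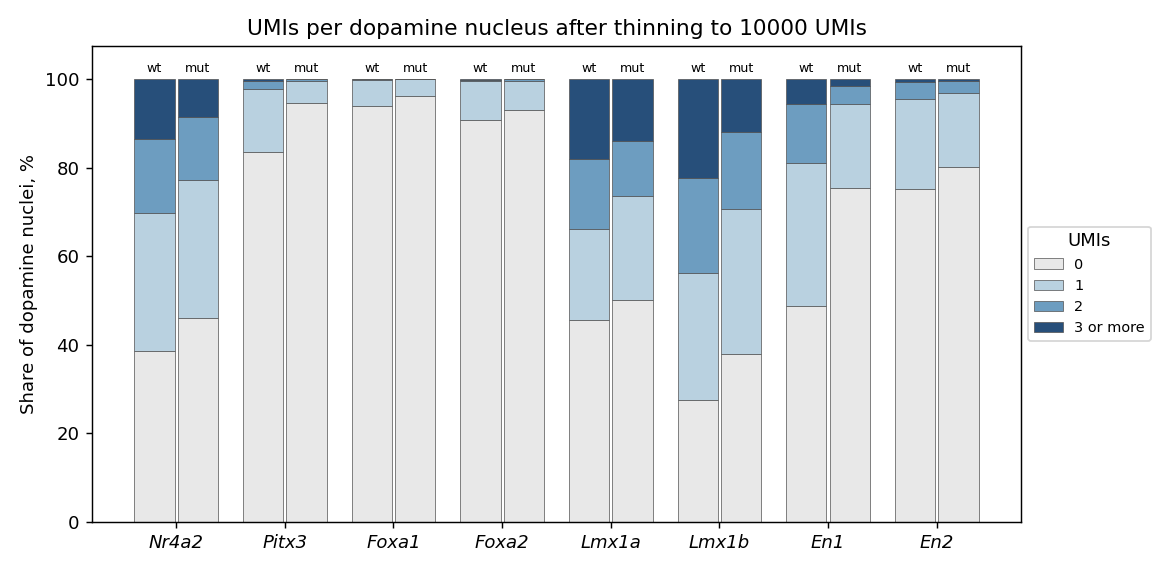
Share of dopamine nuclei (percent) with 0, 1, 2 and 3 or more UMIs of each gene after thinning to 10000 UMIs, for 1157 wt (left bar) and 2354 mutant (right bar) nuclei. The share at 0 for En1 is 48.7% in wt and 75.3% in mutant, while Lmx1a keeps a large share at 3 or more (18.0% and 14.0%).

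Nr4a2 was set against tags of its relatives Nr4a1 and Nr4a3, a comparison chosen after values were seen. In the mutant library, 593 of the dopamine nuclei (25.2%) had at least 1 UMI of Nr4a1 or Nr4a3. Nr4a2 was at 143 CPM (134 to 153) in these and at 79.9 CPM (75.8 to 84.2) in the 1761 without. In the wt library 118 nuclei (10.2%) had such a UMI, with Nr4a2 at 122 CPM (103 to 144) against 112 CPM (106 to 119) in the 1039 without, and these intervals overlap. The r of Nr4a2 with Nr4a3 was 0.33 in mutant and -0.01 in wt nuclei, and that with Nr4a1 0.20 and 0.00. Mutant nuclei without such tags had less Nr4a2 than wt nuclei without them, and mutant nuclei with them did not.

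Dopamine load itself differed, with a median of 24.3 in wt and 13.7 in mutant dopamine nuclei, so the members were compared in bands of equal load. En1 rose with load in wt nuclei, from 3.26 CPM at a load under 1 to 11.9, 37.8, 58.1, 63.5, 74.8 and 95.1 CPM in bands from 1, 5, 10, 15, 20 and 30. In the mutant library the same bands gave 4.35, 11.3, 25.2, 26.9, 31.0, 39.4 and 76.1 CPM. Below a load of 5 the libraries had overlapping levels. At 5 to 10 the interval of the fold was 1.20 to 1.86, at 10 to 15 the fold was 2.16 (1.84 to 2.53), at 15 to 20 it was 2.05 (1.78 to 2.35), and at 20 to 30 it was 1.90 (1.67 to 2.16). Above 30, where the mutant library had 62 nuclei, it was 1.25 (0.946 to 1.68).

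Pitx3 rose from 5.98 CPM at a load of 5 to 10 to 23.7 CPM above 30 in wt nuclei, and from 4.89 to 14.6 CPM in mutant ones. Its fold was 1.22 (0.672 to 2.09) at 5 to 10, 1.64 (1.08 to 2.42) at 10 to 15, 2.38 (1.77 to 3.18) at 15 to 20 and 1.61 (1.26 to 2.05) at 20 to 30. With mutant nuclei weighted to the loads of wt dopamine nuclei, En1 was 1.60-fold and Pitx3 1.67-fold lower, and with 5 CPM added only En1 stayed past 1.5-fold. The weight of the 62 mutant nuclei above a load of 30 is large, and over loads of 5 to 30 alone the folds were 1.92 for En1 and 1.70 for Pitx3.

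Nr4a2 was close at equal load: it rose from 79.6 to 132 CPM in wt and from 83.7 to 123 CPM in mutant dopamine nuclei, and its fold after weighting was 1.06. In nuclei with loads under 1 and of 1 to 5 it was lower in wt than in mutant (24.3 against 35.2 CPM and 51.8 against 62.4 CPM). Lmx1b kept a fold of 1.25 after weighting and Foxa2 one of 1.12. En2 turned in direction, from 1.28-fold lower to a wt level 0.874 times the mutant one, an estimate that rests on the highest band (28.4 CPM in wt and 46.8 CPM in mutant nuclei), since over loads of 5 to 30 it was 1.08-fold lower. Foxa1 went from 1.43-fold to 1.67-fold lower with that band and was 1.26-fold lower without it.

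Lmx1a ran against load in the wt library. It was highest at a load of 5 to 10, at 166 CPM (151 to 183), and declined through 151, 133 and 122 CPM to 73.0 CPM above 30, with 44.5 CPM in nuclei under 1 and 137 CPM from 1 to 5. Mutant nuclei had 116, 97.2, 89.6, 94.0 and 120 CPM in the bands from 5 upwards. The mutant level was lower by 1.44-fold (1.30 to 1.59), 1.55-fold (1.41 to 1.70), 1.48-fold (1.35 to 1.62) and 1.30-fold (1.19 to 1.42) up to a load of 30 and higher above it, where the wt level was 0.608 times the mutant one (0.485 to 0.773). The pooled fold of 1.14 covers bands that differ in direction and that the libraries fill unequally. Above 30 there were 379 wt nuclei, at the lowest wt level of the dopamine bands, against 62 mutant ones. Weighted to the wt loads the fold was 1.12, and over loads of 5 to 30 alone it was 1.38.

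**Figure D3:**
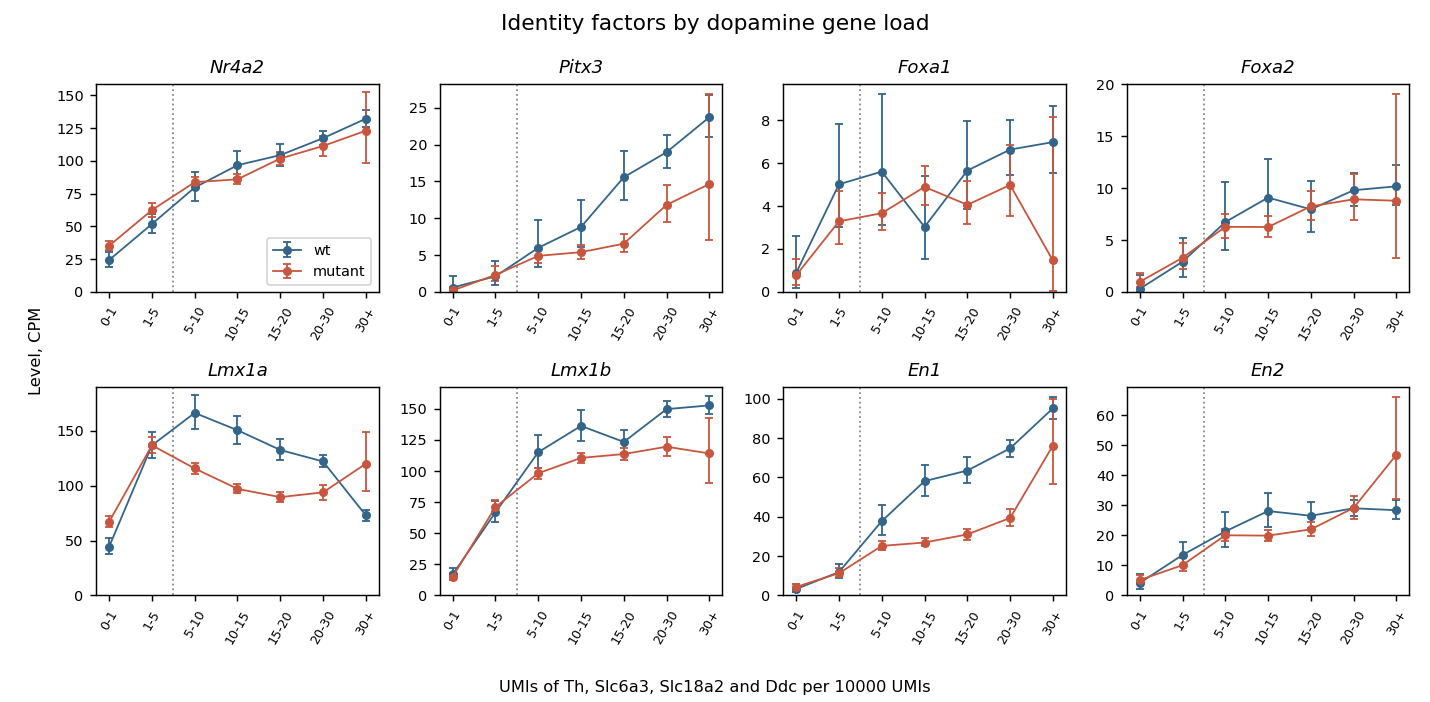
Level in CPM (linear axis from 0) of each of the 8 genes in bands of dopamine load, for wt (blue) and mutant (red) nuclei, with exact 95% Poisson intervals; nuclei right of the dotted line are dopamine nuclei. En1 separates the libraries from a load of 5 to 30 (58.1 against 26.9 CPM at 10 to 15), Nr4a2 overlaps through most bands, and Lmx1a declines with load in wt nuclei.

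Correlations with the dopamine load across dopamine nuclei of a library describe those nuclei only. They were taken on log2(1 + UMIs per 10000), and nuclei share a library, differ in depth and hold few UMIs of most members. En1 had the highest r with load in the wt library, 0.29 over 1320 nuclei, then Nr4a2 (0.23), Pitx3 (0.19) and Lmx1b (0.15). En2 (0.09), Foxa1 (0.05) and Foxa2 (0.01) were near 0, and Lmx1a was negative (-0.18). With all nuclei thinned to 10000 UMIs these were 0.18 for En1, 0.14 for both Nr4a2 and Pitx3, 0.06 for Lmx1b and -0.25 for Lmx1a. At an r of at least 0.1, 4 of 8 members passed in wt nuclei against 9.76% of 11068 genes, and 1 of 8, Lmx1a, was at or below -0.1 against 7.63%.

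In the mutant library the same r values, over 2875 nuclei, were smaller in size for all members but Foxa2. En1 had 0.09 and Pitx3 0.10, both just under the limit of 0.1. Nr4a2, Lmx1b and En2 had 0.07 each, Foxa2 0.03, Foxa1 0.02 and Lmx1a -0.09. No member passed 0.1 in size there, and only 1.44% of genes were at 0.1 or above and 1.89% at -0.1 or below. The 5th and 95th percentiles of r over all genes were -0.135 and 0.154 in wt and -0.0692 and 0.0453 in mutant nuclei. In wt, En1, Nr4a2 and Pitx3 lay above this range and Lmx1a below it. In the mutant library Pitx3, En1, Nr4a2, Lmx1b and En2 lay above its range and Lmx1a below it. The range of load was narrower in this library, with an SD of log2(1 + load) of 0.579 against 0.690 in wt, and load ran with depth in opposite directions, at an r of -0.13 in mutant and 0.21 in wt nuclei. With Ddc left out of the sum, En1 (0.11), Pitx3 (0.13) and Nr4a2 (0.12) passed in the mutant library.

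Single dopamine genes gave mixed values. In thinned wt nuclei En1 had an r of 0.15 with Slc6a3, 0.14 with Slc18a2, 0.13 with Th, 0.11 with Ddc and 0.16 with the autoreceptor gene Drd2. In mutant nuclei these were 0.00, 0.06, 0.08, 0.02 and -0.03. Pitx3 had 0.14 with Drd2 and 0.12 with Slc18a2 in wt nuclei, and -0.01 and 0.06 in mutant ones. Other pairs were not smaller in mutant nuclei or were nearly equal: En1 with Aldh1a1 (0.11 in wt and 0.10 in mutant), Nr4a2 with Slc18a2 (0.10 and 0.11) and Th (0.09 and 0.09), and Pitx3 with Aldh1a1 (0.04 and 0.09). Values of this size in sparse counts are weak and are given as description.

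Lmx1a was the member with correlations of some size in both libraries. With Aldh1a1, a gene of ventral nigral neurons, thinned r was -0.33 in wt and -0.20 in mutant nuclei, and with Sox6 it was -0.33 and -0.29. Drd2 gave -0.26 and -0.24. Calb1, a calcium buffer of dorsal and tegmental dopamine neurons that was chosen after values were seen, gave 0.20 and 0.21. The r with Slc6a3 was -0.26 in wt and -0.12 in mutant nuclei, and that with Slc18a2 -0.17 and -0.01. Between members, Lmx1a and En1 had -0.13 in wt and 0.01 in mutant nuclei, and no thinned r between Nr4a2, Pitx3, Lmx1b, En1 and En2 exceeded 0.10 in either library.

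**Figure D4:**
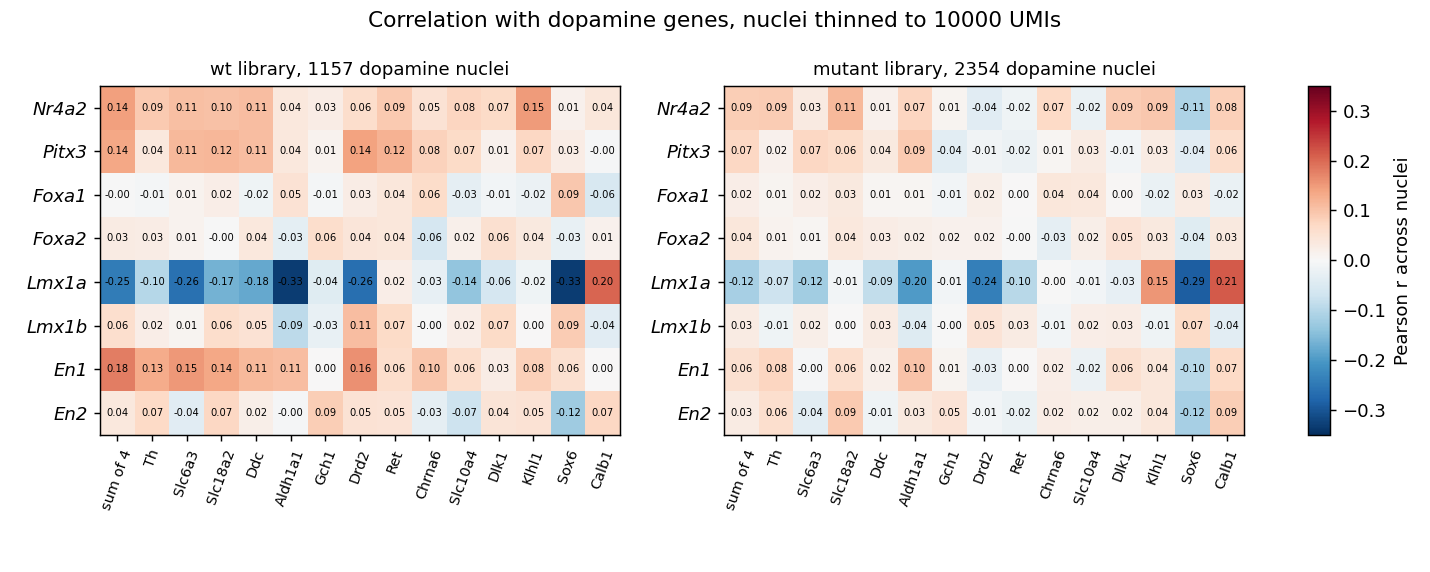
Pearson r across dopamine nuclei, thinned to 10000 UMIs, of each of the 8 genes (rows) with the summed dopamine load and with single genes (columns), for the wt library (left, 1157 nuclei) and the mutant library (right, 2354 nuclei). The row of Lmx1a is negative for Aldh1a1, Drd2 and Sox6 in both, and the row of En1 is paler in the mutant library (0.18 against 0.06 with the sum).

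The genes most like each member were taken by r over wt dopamine nuclei, among genes seen in at least 10% of them. For Lmx1a these were Tmeff2 (0.47), Ndst3 (0.44) and Pcdh7 (0.42), with 0.36, 0.38 and 0.40 in the mutant library, so the likeness was of a similar size there. For En1 they were Syt1 (0.29), Th (0.28) and 1700042O10Rik (0.27), with 0.05, 0.13 and 0.08 in mutant nuclei. For Nr4a2 they were Rims1 (0.29), Klhl1 (0.26) and Prkca (0.25), with 0.08, 0.11 and -0.06. For Pitx3 they included Rgs6 (0.22) and Fam196b (0.22), with 0.04 and 0.07. For Lmx1b they were Zfhx3 (0.27), Sgcd (0.26) and Csmd1 (0.25), with 0.11, 0.10 and 0.14. For En2 they were Ehbp1 (0.21), Ghr (0.21) and Tacr3 (0.20), with 0.15, 0.14 and 0.12. The genes closest to Foxa1 (Trpc6, Gm26936 and Rreb1) and Foxa2 (Strip2, En2 and Stard9) had an r between 0.16 and 0.19, and thinning brought all 6 below 0.1. These genes were picked as the highest of all, so their wt values are not evidence of a link.

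Within mutant dopamine nuclei, the members were compared by their load of Hoxc4 and of Pax3, a factor of the dorsal neural tube. All nuclei were thinned to 10000 UMIs, and 684 nuclei with 2 or more Hoxc4 UMIs were set against 1154 with 0. En1 was at 22.7 CPM in the loaded nuclei and 41.1 CPM in those without, 1.81-fold lower (1.51 to 2.19). Lmx1a was at 81.3 and 124.5 CPM, 1.53-fold lower (1.39 to 1.69), just past the limit. These 2 of 8 members were lower and 0 higher, against 3.51% of 12174 genes lower and 1.86% higher. Another 3 members were lower but within the limit with 5 CPM added. En2 was at 18.3 and 28.5 CPM (1.56-fold, 1.27 to 1.93) and Nr4a2 at 75.4 and 111 CPM (1.47-fold, 1.33 to 1.63). Pitx3 was at 4.53 and 7.28 CPM (1.61-fold, 1.05 to 2.51). Lmx1b was higher in the loaded nuclei (121 and 105 CPM, 1.16-fold), and Foxa1 (4.24 and 3.81 CPM) and Foxa2 (7.89 and 7.45 CPM) had intervals that include equal levels.

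By steps of 0, 1, 2 to 3 and 4 or more Hoxc4 UMIs, En1 was at 41.1, 24.6, 25 and 15.9 CPM, Lmx1a at 125, 97.7, 89.0 and 59.1 CPM, and Nr4a2 at 111, 89.1, 77.4 and 69.9 CPM. Lmx1b ran the other way, at 105, 106, 114 and 142 CPM. The largest step for En1 was from 0 to 1 UMI, while Lmx1a continued down to the highest class of 176 nuclei. Median dopamine load was 13 or 14 in all steps, and Slc6a3 (199 and 194 CPM) and Ddc (827 and 824 CPM) were nearly equal, with Th at 72.9 and 85.7 CPM and Slc18a2 at 288 and 350 CPM. The share of nuclei with an Slc6a3 UMI still rose over the steps, at 64.3%, 75.2%, 75.4% and 84.1%. The part of this in the members' differences was not tested. Gad1, a GABA neuron gene, was at 81.7, 102, 128 and 126 CPM over the same steps, and its part in the members' differences was not tested. Nuclei without Hoxc4 UMIs were shallower before thinning, with a median of 19159 UMIs against 24361 to 27240.5 in the steps above, and the part of depth in these differences was not tested beyond thinning.

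For Pax3, 576 nuclei with 2 or more UMIs were set against 1271 with 0. En2 was the member past the limit, at 16.3 and 27.5 CPM (1.68-fold lower, 1.34 to 2.14), against 3.24% of 12198 genes lower and 1.48% higher. En1 was at 25.2 and 38.4 CPM (1.52-fold, 1.26 to 1.85), Nr4a2 at 81.6 and 108 CPM and Lmx1a at 89.1 and 120 CPM, all within the limit with 5 CPM added. Pitx3, at 4.86 and 7.47 CPM (1.54-fold, 0.9997 to 2.44), was within it too. Lmx1b was level, at 109.7 and 110.4 CPM. Which members pass depends on where the limit falls: with 5 CPM added, Nr4a2 and En2 for Hoxc4 (log2 ratio -0.53 each) and En1 for Pax3 (-0.52) lay just within it. Lmx1a for Hoxc4 (-0.59) and En2 for Pax3 (-0.61) lay just past it. Gad1 went from 80.3 to 136 CPM over the Pax3 steps, and its part in these differences was not tested. With all mutant nuclei in place of the dopamine nuclei, none passed for either gene.

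**Figure D5:**
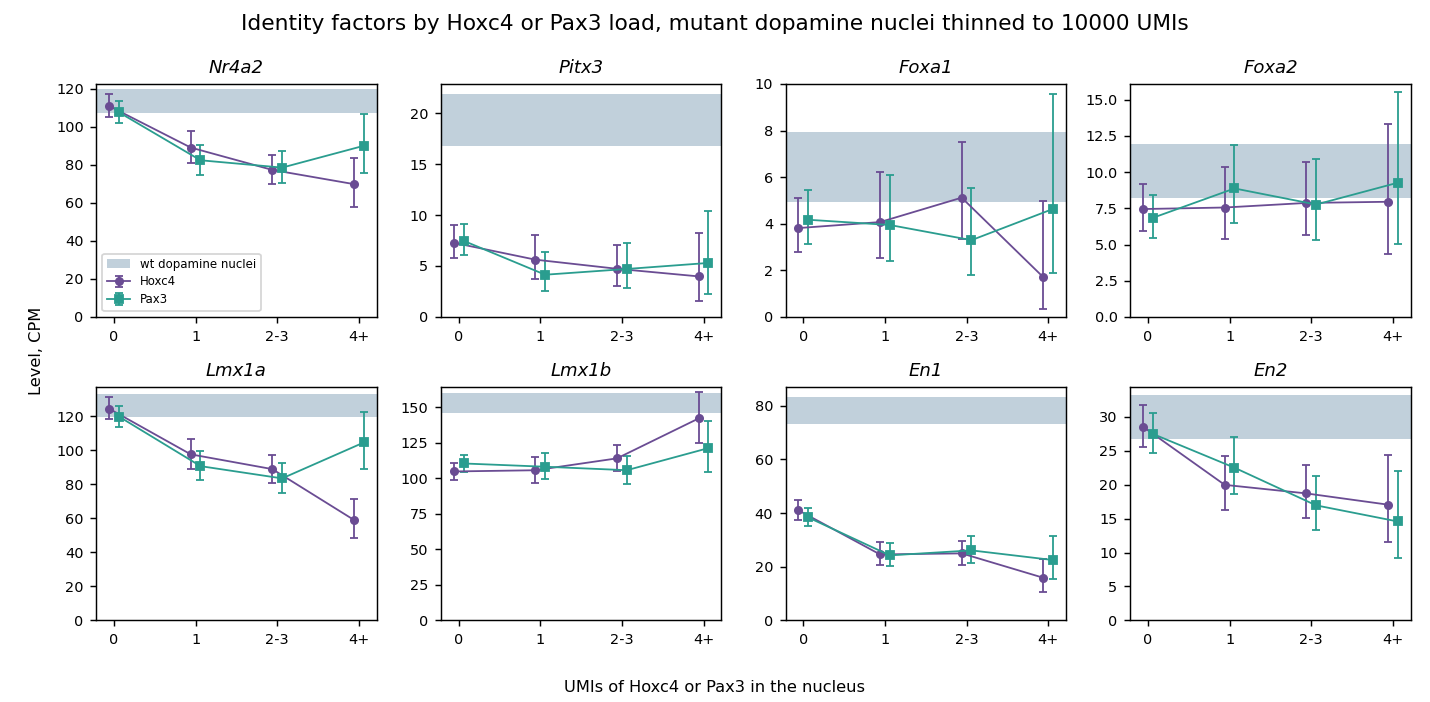
Level in CPM (linear axis from 0) of each of the 8 genes in mutant dopamine nuclei with 0, 1, 2 to 3 and 4 or more UMIs of Hoxc4 (purple circles) or Pax3 (green squares), all thinned to 10000 UMIs, with exact 95% Poisson intervals; the blue band is the interval of wt dopamine nuclei. En1 goes from 41.1 to 15.9 CPM with Hoxc4, all below the wt band (73.0 to 83.3 CPM), while Nr4a2 and En2 start within it.

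Put in 4 classes, 855 mutant dopamine nuclei (36.3%) had neither a Hoxc4 nor a Pax3 UMI, 416 had Hoxc4 only, 299 Pax3 only and 784 both. En1 was at 43.9, 27.2, 33.1 and 21.6 CPM in this order, and at 78.0 CPM in 1157 thinned wt nuclei. Nr4a2 was at 119, 85.3, 89.3 and 79.2 CPM, with 113 CPM in wt, and Lmx1a at 134, 90.6, 97.0 and 87.1 CPM, with 126 CPM in wt. En2 was at 31.0, 20.2, 21.4 and 18.4 CPM, with 29.8 CPM in wt. In these 4 genes the class with neither was the highest of the mutant classes. For Nr4a2, Lmx1a and En2 it overlapped the wt level. Pitx3 was also highest there, at 8.19 CPM against 4.46 to 6.01 CPM. Lmx1b was higher in nuclei with both (114 against 108 CPM), and so was Foxa2 (8.42 against 7.02 CPM). Foxa1 was at 4.21 CPM in each of these classes. The class with neither was the shallowest before thinning, with a median of 18085 UMIs against 22652 to 26189. The part of depth was not tested, and the share of all genes highest in this class was not counted.

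The nuclei with neither were then set against wt nuclei directly. The 2 groups were not matched for load or depth: median dopamine load after thinning was 14 against 25 in wt. Median depth before thinning was 18085 against 26613 UMIs. The part of load and depth in the differences below was not tested. Pitx3 was 2.34-fold lower (1.78 to 3.11), En1 1.78-fold (1.58 to 2.01) and Lmx1b 1.41-fold lower (1.30 to 1.53, within the limit). The intervals for Nr4a2 (wt level 0.956 times theirs, 0.88 to 1.04), Lmx1a (0.941, 0.871 to 1.02) and En2 (0.962, 0.817 to 1.13) included equal levels. Foxa1 (6.31 CPM in wt and 4.21 CPM here, fold interval 0.992 to 2.30) and Foxa2 (1.42-fold, 1.03 to 1.97) rest on few UMIs and were within the limit. With En1 and Pitx3, 2 of 8 members were past the limit, all lower, against 2.13% of 12416 genes lower and 2.86% higher. Th was 2.12-fold lower in these nuclei, and Gad1 was at 69.5 CPM against 2.59 CPM in wt nuclei. A nucleus without a UMI at this depth may still transcribe Hoxc4 or Pax3, and whether its Eed was deleted cannot be read from these counts.

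In mutant other nuclei, 116 of 713 (16.3%) had a Hoxc4 or Pax3 UMI. Lmx1b was at 80.2 CPM (64.7 to 98.2) in these and 33.8 CPM (29.3 to 38.8) in the rest, and Lmx1a at 139 CPM (118 to 162) and 102 CPM (93.7 to 110.1). Ddc, one of the split genes, was at 174 and 71.2 CPM in the same nuclei. En1 (9.48 and 7.03 CPM) and Nr4a2 (45.7 and 47.9 CPM) had overlapping intervals.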

How the data were processed

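The file deposited by the authors holds raw UMI counts, genes by nuclei, as whole numbers without normalisation. Column names begin with the library. Per the submitters' processing notes, Cell Ranger 3.1.0 and mm10 were used, with no role given for either, and filters before deposit are not given in the sources used here. The lowest total was 673 UMIs in the wt and 621 in the mutant library, and no further nucleus was removed. No doublet caller was run; nuclei with at least 5 glial or vascular marker UMIs per 10000 (154 wt and 232 mutant dopamine nuclei) were left out as an alternative.

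For each class, UMIs were summed and divided by the class total (CPM), with Python 3.11.15, numpy 2.4.6, scipy 1.17.1, pandas 2.3.3 and matplotlib 3.10.9. Log2 ratios had 5 CPM added and were called at 1.5-fold, where both classes together had 50 or more UMIs. Level and share intervals are exact Poisson and binomial (Clopper-Pearson), and fold intervals come from the binomial split of the counts, all at 95%. Thinning drew UMIs without replacement, and a count of 0 allows 3 nuclei. The scripts were tested on simulated data. The genes and lists were chosen with earlier results of these data known, and the r limit of 0.1, load bands, marker minimum of 1 per 10000 for kinds of other nuclei, motifs and CpG counts after values were seen. Named genes are the 8 members, the 4 split genes, Hoxc4, Pax3, 8 dopamine genes, regulators past 1.5-fold with up to 4 others, and the 3 genes most like each member seen in at least 10% of wt dopamine nuclei. One gene that this rule names is not reported here. Eed, Gad1, Elovl3 and Calb1 were added as checks. Of the marker lists fixed for other cell types, serotonin neuron markers summed to 3.10 CPM in wt and 1.89 CPM in mutant dopamine nuclei, noradrenaline markers to 0.127 and 0.102 CPM, acetylcholine markers to 0.736 and 0.655 CPM, glutamate markers to 25.6 and 33.1 CPM, and oligodendrocyte precursor markers to 49.6 and 34.1 CPM.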

Additional observations from a re-analysis of the deposited data

How the results depend on the processing

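En1 was past 1.5-fold lower in mutant dopamine nuclei under every alternative setting run, and Pitx3 under all but the weighting to the wt dopamine load. That weighting left 1 member past the limit in place of 2, and so did its version over loads of 5 to 30, added after the data were seen (Pitx3 at a log2 ratio of -0.54 in both). Without the 5 CPM added, the folds after weighting were 1.67 for Pitx3 and 1.60 for En1, so the call rests on the added level. Between dopamine and other nuclei, a dopamine load of at least 10 left 2 of 6 members past the limit in the mutant library, En1 and Lmx1b. For the r with dopamine load, a size of at least 0.1 was reached by 8 members in place of 5 in wt nuclei when all nuclei were used, where Lmx1a turned positive (0.18). In the mutant library, with 0 in dopamine nuclei, it was 1 with Spearman's rho, 1 after thinning, 1 without glia-marked nuclei, 3 without Ddc in the sum and 7 over all nuclei. All nuclei mix both classes, which differ in level. For Hoxc4 load the count of 2 became 1 with loaded nuclei at 1 or more UMIs, 4 at 4 or more and 0 over all mutant nuclei. For Pax3 the count of 1 became 2 with 1 CPM added, 3 at each nucleus' own depth, 0 at 1 or more UMIs, 2 at 4 or more and 0 over all mutant nuclei. The 3 at own depth were Pitx3, Lmx1a and En1, while En2, the member of the main setting, fell within the limit (log2 ratio -0.43). The cause of the other shifts was not tested. The 30 other counts stayed within 1.5 times. No paired analysis was possible because the replicate numbers are lanes of 1 library, the table pools them, and no test was run. For the same reason no replicate could be left out.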
